A study of Mus musculus with 9 samples.

Results

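The lysosome genes described here are 46 genes for the hydrolases, membrane proteins and proton pump of the lysosome and for the transcription factors that control them. They were chosen by name, as the rows of the deposited expression table that carry these symbols, and all 46 were found among its 24493 genes. By role they comprise 12 cathepsin and legumain genes, 12 genes for other hydrolases and their activators, 6 for membrane proteins, 3 for transcription factors and 13 for subunits of the vacuolar proton pump. RNA sequencing had been done on cultured mouse pancreatic tumor cells of C57BL/6 background, untreated and grown in DMEM with 10% serum. There were 3 libraries of the parental line, 3 of escape e1 and 3 of escape e2, and the series describes the escape lines as resistant to immunotherapy and derived from the parental line. The labels do not say what selected the escape lines, whether each is a single clone or whether the libraries of a group are separate cultures, so p-values measure only the spread between these libraries. Levels are TPM, a transcript's share of its library after division by transcript length, which can be compared between genes but say nothing of how many reads lay behind them, so read depth is unknown.

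Lysosomes are acidic compartments in which proteins, glycans and lipids from endocytosis and autophagy are broken down. Soluble acid hydrolases reach them from the Golgi, mostly by the mannose 6-phosphate tag, and work at the low pH that the vacuolar ATPase (V-ATPase) maintains: its cytosolic V1 sector burns ATP and its membrane V0 sector carries the protons. Heavily glycosylated membrane proteins such as LAMP1 and LAMP2 line the compartment. The MiT factors TFEB, TFE3 and MITF raise many of these genes together through promoter elements built on an E-box, and mTORC1 at the lysosome surface holds the factors in the cytosol when nutrients are plentiful. Pancreatic tumor cells are known for high MiT factor and lysosome activity.

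The lysosome genes stood apart mainly in e2. Of the 46, 44 reached 1 TPM in at least 3 libraries and were tested. The cathepsin gene Ctss and the V-ATPase gene Atp6v0d2 did not reach it in any library. A gene was called when its adjusted p, from limma over all 12769 genes tested, was under 0.05. In e2, 33 of the 44 rose against parental cells and 6 fell, where 40.8% of all genes tested rose and 32.7% fell, and the median log2 fold change on the log2(TPM + 1) scale was 0.96 over the members and 0.07 over all genes. In e1, 18 rose and 18 fell, against 35.7% and 34.9% of all genes, with medians of 0.04 and 0.02. Compared directly, 43 members were higher in e2 than in e1 and 1, Atp6v1a, was lower, where 40.6% of all genes were higher and 29.7% lower. The median difference was 1.06 over the members and 0.09 over all genes. Ctsk and Mitf were under 1 TPM in every parental and e1 library, so they could only come out higher in e2 than in e1. Among the 41 members with a parental mean of at least 1 TPM, 40 were higher in e2 and 1 lower, with a median of 0.96. Of all genes with such a mean, 38.8% were higher and 30.6% lower.

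Changes of at least 1 on the log2 scale were more often upward in e2. There 21 of 44 members rose by at least 1, against 13.7% of all genes, and 2 fell by at least 1, Ctsh and Neu1, against 9.97%. In e1, 3 rose by at least 1, Hexa, Cd63 and Gpnmb, against 7.91% (5 without e1 library 1, and 6 with a pseudocount of 0.1), and 5 fell by at least 1, Ctsc, Ctsh, Neu1, Scarb2 and Atp6v0a1, against 12.3%. The genes Ctsk, Mitf and Gpnmb had parental means under 1 TPM and entered the test through escape libraries, so in e2 they could only come out higher. In e1 every library of Ctsk and Mitf was also under 1 TPM, so the filter did not fix their direction there. Without Ctsk, Mitf and Gpnmb, 30 of 41 members rose and 6 fell in e2, with a median of 0.89, while 36.8% of the 11684 genes with a parental mean of at least 1 TPM rose and 35.6% fell. In e1, 15 of the 41 rose and 18 fell, against 33.3% and 37.6% of those genes. By at least 1, 18 of the 41 rose and 2 fell in e2, where 1075 of the 11684 genes rose and 1273 fell. In e1, 2 of the 41 rose by at least 1 and 5 fell, where 625 and 1568 of the 11684 genes did. Across both lines, 17 members rose in each, 6 fell in each, 8 fell in e1 and rose in e2, and 8 rose in e2 with no call in e1. Both comparisons use the same parental libraries. How many of all genes tested follow each joint pattern was not counted, so these joint counts cannot be called unusual.

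**Figure D1:**
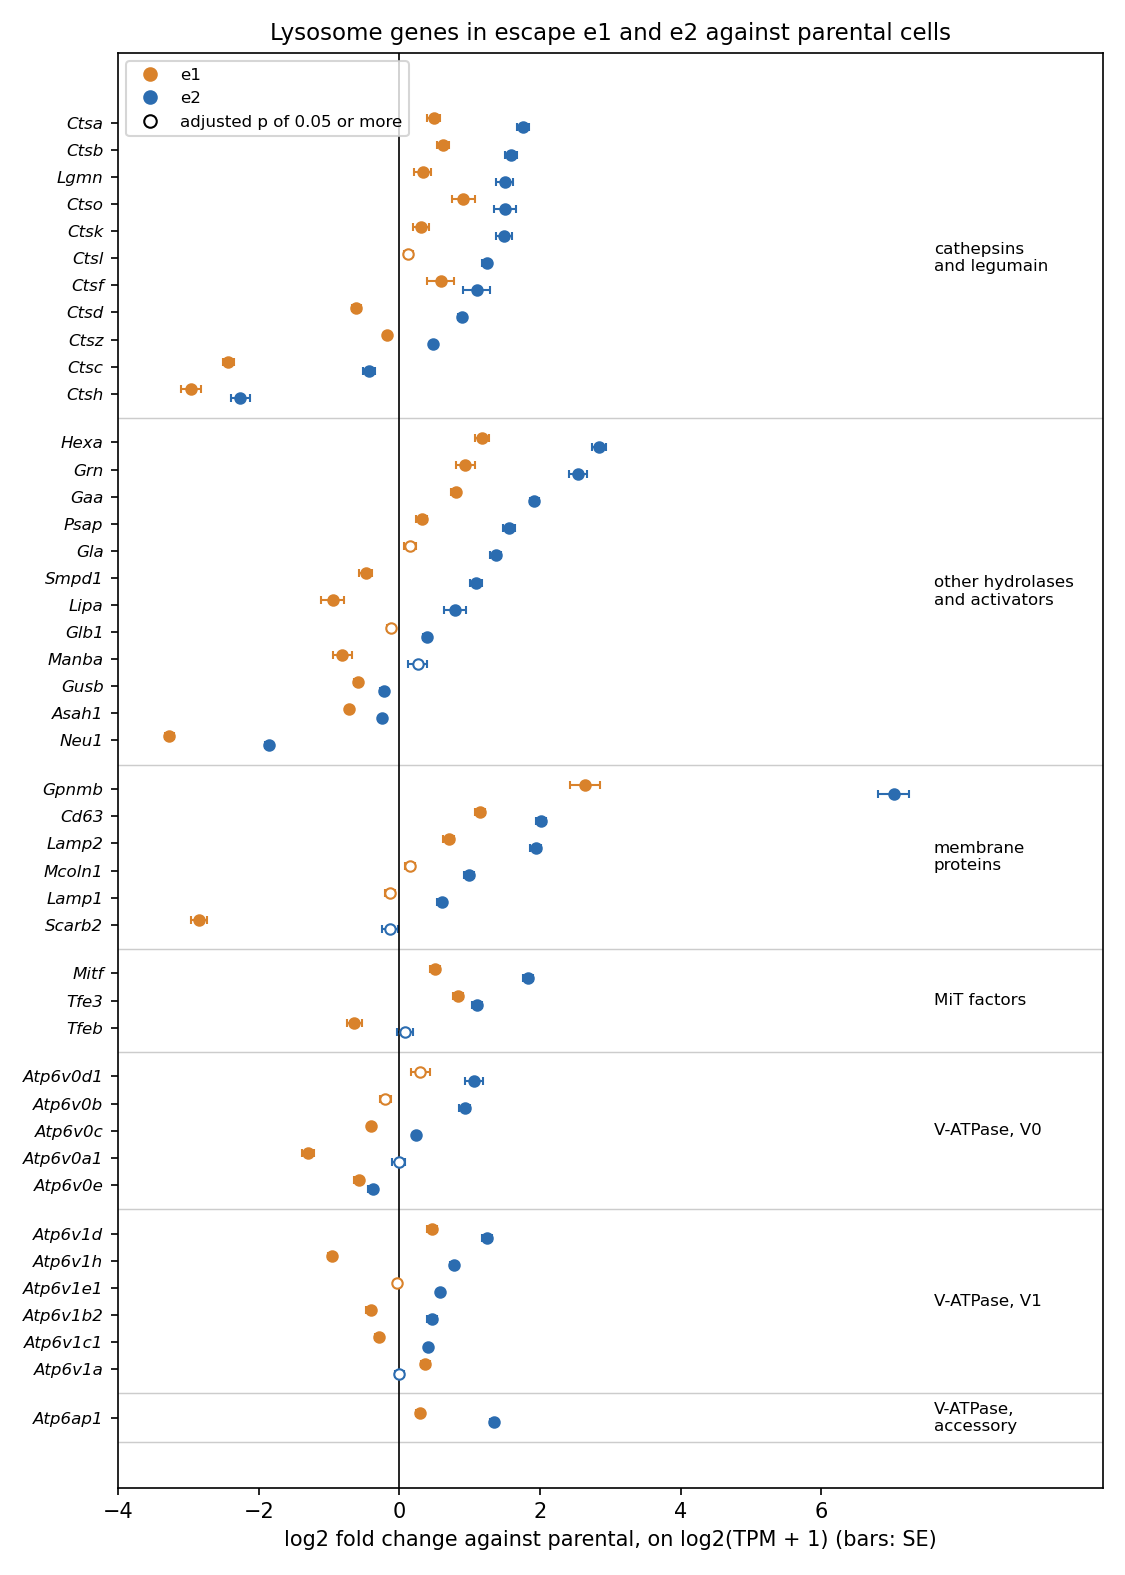
Log2 fold change against parental cells (x axis, on the log2(TPM + 1) scale, bars are SE) for the 44 lysosome members tested, in e1 (orange) and e2 (blue), ordered within each role by the e2 value. Open symbols have an adjusted p of 0.05 or more, and the e2 point lies to the right of the e1 point for every gene other than Atp6v1a.

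Summed over the 46 genes, the members made up 4400 to 4632 TPM in the parental libraries, 4146 to 4583 TPM in e1 and 8691 to 8815 TPM in e2, so the sum in e2 was 1.94 times the parental one. The membrane protein genes summed to 2.60 times the parental level in e2, the hydrolases outside the cathepsins to 2.12 times, the cathepsins with legumain to 1.94 times and the V-ATPase subunits to 1.41 times. In e1 the sums of the cathepsin, other hydrolase and V-ATPase genes were 0.864, 0.943 and 0.848 times the parental ones, and that of the membrane protein genes was 1.33 times. These sums are led by a few abundant genes, among them Lamp1, Atp6v0c and Ctsd in parental cells. In e1 the membrane protein sum went from a parental mean of 1008 TPM to 1339 TPM. Cd63 went from 277 to 614 TPM and Lamp2 from 98.6 to 161 TPM. The mean of Lamp1 was 564 TPM in parental cells and 517 TPM in e1, and that of Scarb2 34.2 and 3.89 TPM, so the rise was not shared across the group.

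**Figure D2:**
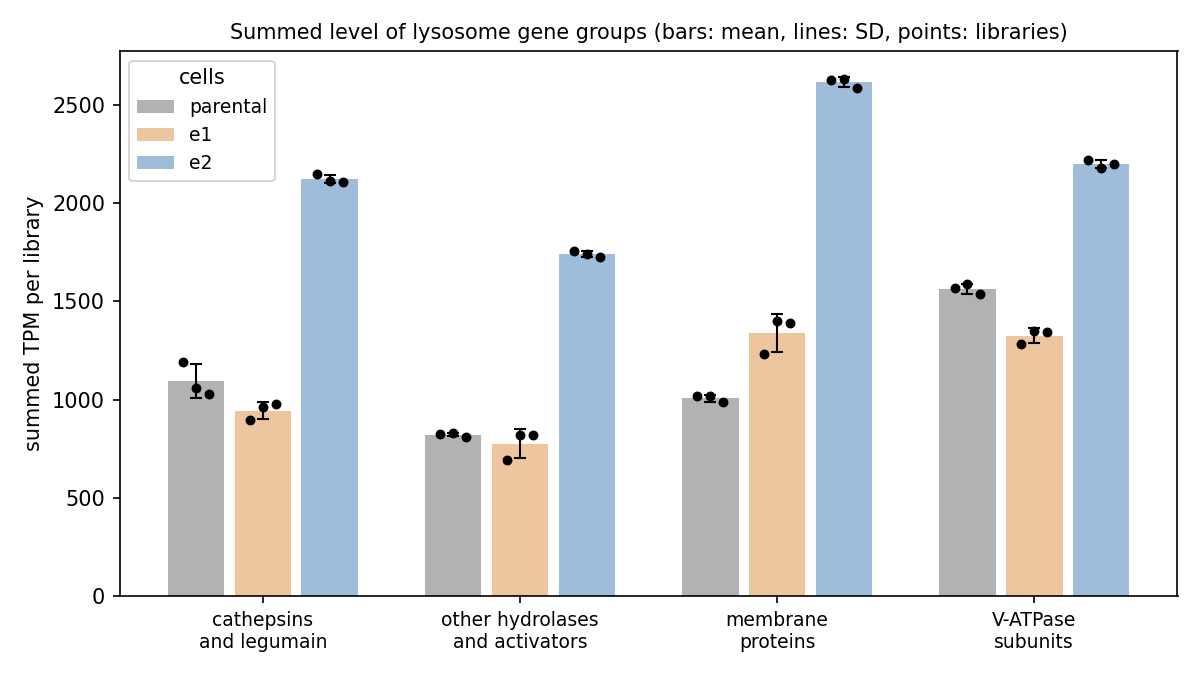
Summed TPM per library (y axis) of the cathepsin and legumain, other hydrolase, membrane protein and V-ATPase genes in parental, e1 and e2 cells, with group means as bars, SD as lines and libraries as points (n = 3 a group). In each of the 4 groups of genes the 3 e2 libraries lie above all e1 and parental libraries.

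Among the proteases, most cathepsin genes rose in e2 and a pair fell. Of the 11 tested genes, 9 rose in e2 and 2 fell, against 40.8% and 32.7% of all genes. Without Ctsk, which could only come out higher there, 8 of 10 rose and 2 fell, with a median log2 fold change of 1.17. Of the 11, 6 rose and 4 fell in e1, against 35.7% and 34.9%. The 6 became 3 without parental library 2, e1 library 2 or e1 library 3, since Ctsf, Ctsk and Lgmn lost their calls. Ctsd, the main aspartic protease of lysosomes, stood at 466, 409.7 and 399 TPM in the parental libraries, 263, 284 and 288 TPM in e1 and 794, 778 and 781 TPM in e2. The e1 libraries were the lowest and the e2 libraries the highest, with no overlap between groups. Its log2 fold change was -0.61 ± 0.06 in e1 (adjusted p = 1.86e-05) and 0.89 ± 0.06 in e2 (adjusted p = 1.14e-06). Ctsz, a carboxypeptidase of the cysteine cathepsin family, kept the same order at 191, 184 and 184 TPM in the parental libraries, 162, 161 and 168 TPM in e1 and 260.3, 260.1 and 262 TPM in e2. It fell slightly in e1, at -0.18 ± 0.04 (adjusted p = 0.0036), and rose in e2, at 0.48 ± 0.04 (adjusted p = 4.98e-06).

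The cysteine endopeptidase genes Ctsb and Ctsl were high in e2. Ctsb stood at 104, 90.4 and 87.6 TPM in the parental libraries, 128, 152 and 156 TPM in e1 and 286, 285 and 279 TPM in e2, and no library of one group reached into another. Its log2 fold change was 0.62 ± 0.09 in e1 (adjusted p = 0.000122) and 1.59 ± 0.09 in e2 (adjusted p = 1.45e-07). For Ctsl the libraries read 200.1, 170.2 and 166 TPM in the parental libraries, 203, 193 and 190.0 TPM in e1 and 430.2, 422 and 416 TPM in e2, so that e1 overlapped parental cells and e2 stood clear of both. The e2 value was 1.24 ± 0.07 (adjusted p = 1.99e-07), and the e1 value, 0.13 ± 0.07, missed the threshold (adjusted p = 0.122) but passed without parental library 1 (0.21, adjusted p = 0.00278). Ctsa encodes a serine carboxypeptidase that also shields beta-galactosidase and neuraminidase, and stood at 50.3, 47.7 and 44.7 TPM in the parental libraries, 57.9, 70.7 and 74.00 TPM in e1 and 164, 162 and 165 TPM in e2. The 3 groups did not overlap, with log2 fold changes of 0.49 ± 0.09 in e1 (adjusted p = 0.000712) and 1.76 ± 0.09 in e2 (adjusted p = 8.09e-08). Lgmn, the asparaginyl endopeptidase legumain that trims cathepsin precursors, stood at 74.8, 54.7 and 52.95 TPM in the parental libraries, 69.3, 80.00 and 78.4 TPM in e1 and 175, 169.9 and 170.5 TPM in e2. It was far higher in e2, at 1.50 ± 0.12 (adjusted p = 2.25e-06). In e1 it passed narrowly, at 0.33 ± 0.12 (adjusted p = 0.0316), its libraries overlapped the parental ones, and the call ended under 7 of 18 alternatives, including the removal of parental library 2 or 3 or of e1 library 2 or 3.

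The exceptions were Ctsh and Ctsc. Ctsh, an aminopeptidase of the cysteine cathepsin family on chromosome 9 (90054267 to 90076095 in GRCm38.p6), stood at 90.5, 85.5 and 80.99 TPM in the parental libraries, 7.62, 11.2 and 12.05 TPM in e1 and 18.5, 16.2 and 16.8 TPM in e2. The parental libraries lay far above both lines and e2 lay above e1, with log2 fold changes of -2.96 ± 0.14 (adjusted p = 5.85e-08) and -2.26 ± 0.14 (adjusted p = 3.51e-07). Ctsc, the dipeptidyl peptidase that activates granule serine proteases, stood at 11.4, 13.8 and 13.1 TPM in the parental libraries, 1.64, 1.52 and 1.50 TPM in e1 and 9.10, 8.90 and 9.58 TPM in e2. Its fall was -2.43 ± 0.08 in e1 (adjusted p = 5.33e-09) and -0.43 ± 0.08 in e2 (adjusted p = 0.000863), and e2 exceeded e1 by 2.0 on the log2 scale. Low cathepsin genes followed the majority: Ctso had 1.04 ± 0.171 TPM in parental cells and 4.76 ± 0.0140 TPM in e2 (mean ± SD, n = 3 libraries), Ctsf 1.50 ± 0.441 and 4.29 ± 0.0850 TPM, and Ctsk, the collagen-degrading cathepsin of osteoclasts, 0.105 ± 0.0390 and 2.11 ± 0.318 TPM. In e2 their log2 fold changes were 1.50 ± 0.16, 1.10 ± 0.19 and 1.49 ± 0.11, of which that of Ctsk could only be upward. The Ctsf and Ctsk calls in e1 each ended under several alternatives, among them the removal of parental library 2 and of e1 library 2 or 3. Ctss, the cathepsin of antigen-presenting cells, was listed at 0 in every parental and e1 library and at 0.105, 0 and 0.185 TPM in e2.

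The other hydrolase and activator genes rose in e2 by 8 of 12, with 3 falling and Manba not called, while in e1 4 rose, 6 fell and 2 were not called (all genes: 40.8% higher and 32.7% lower in e2, 35.7% and 34.9% in e1). Of them Hexa had the largest rise in both lines. It encodes the alpha subunit of beta-hexosaminidase A, lies on chromosome 9 (59539540 to 59565109) and stood at 19.02, 14.5 and 15.7 TPM in the parental libraries, 34.3, 39.7 and 40.1 TPM in e1 and 124, 121 and 124 TPM in e2. The groups were far apart, with log2 fold changes of 1.17 ± 0.10 in e1 (adjusted p = 3.18e-06) and 2.84 ± 0.10 in e2 (adjusted p = 5.76e-09), so that e2 was 7.47-fold above parental cells. Grn, whose product progranulin is cleaved to granulins in lysosomes, stood at 75.3, 68.5 and 66.6 TPM in the parental libraries, 105, 151 and 155 TPM in e1 and 409, 413 and 418 TPM in e2. Its increase was 0.94 ± 0.13 in e1 (adjusted p = 0.000127) and 2.54 ± 0.13 in e2 (adjusted p = 9.43e-08), and e1 library 1 was the lowest of the e1 libraries.

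Gaa, the acid alpha-glucosidase that degrades glycogen, stood at 28.4, 28.4 and 26.98 TPM in the parental libraries, 45.5, 50.6 and 52.7 TPM in e1 and 110.0, 108 and 108 TPM in e2. It rose in steps without overlap, by 0.80 ± 0.06 (adjusted p = 1.77e-06) and 1.92 ± 0.06 (adjusted p = 3.89e-09). Psap, the precursor of the saposins that present lipids to hydrolases, stood at 198, 194 and 193 TPM in the parental libraries, 211, 259 and 263 TPM in e1 and 582, 577 and 574 TPM in e2. Its e1 libraries lay just above the parental ones and its e2 libraries far above, at 0.32 ± 0.08 (adjusted p = 0.00491) and 1.56 ± 0.08 (adjusted p = 8.02e-08). Gla, the alpha-galactosidase A gene, stood at 9.28, 8.89 and 8.33 TPM in the parental libraries, 8.71, 10.5 and 10.5 TPM in e1 and 24.3, 24.7 and 24.4 TPM in e2. The e2 value was 1.37 ± 0.08 (adjusted p = 2.2e-07), and e1 overlapped parental cells at 0.15 ± 0.08 (adjusted p = 0.118), which passed without e1 library 1 (0.23, adjusted p = 0.00399).

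The lipid hydrolase genes Smpd1 and Lipa moved in opposite directions in the 2 lines. Smpd1, acid sphingomyelinase, stood at 20.1, 20.97 and 22.1 TPM in the parental libraries, 12.7, 15.8 and 16.3 TPM in e1 and 49.7, 45.3 and 43.4 TPM in e2. Each e1 library was below and each e2 library above every parental one, with log2 fold changes of -0.48 ± 0.09 (adjusted p = 0.00137) and 1.09 ± 0.09 (adjusted p = 4.03e-06). Lipa, the acid lipase for cholesteryl esters and triglycerides, stood at 39.8, 47.4 and 46.04 TPM in the parental libraries, 16.1, 26.96 and 25.7 TPM in e1 and 78.9, 77.9 and 75.5 TPM in e2. The same order held, at -0.95 ± 0.16 (adjusted p = 0.000542) and 0.79 ± 0.16 (adjusted p = 0.00168), with e1 library 1 the lowest. Asah1, acid ceramidase, and Gusb, beta-glucuronidase, were lower in both lines: Asah1 had means of 269 ± 8.35 TPM in parental cells, 164 ± 3.58 TPM in e1 and 228 ± 6.21 TPM in e2 (SD, n = 3 libraries), and Gusb had means of 73.8 ± 1.41, 48.8 ± 3.72 and 63.1 ± 2.84 TPM in the same order. The Gusb call in e2 (-0.22 ± 0.06, adjusted p = 0.011) ended without e2 library 3 (-0.19, adjusted p = 0.0511).

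Neu1 had the largest fall of all members in e1. It encodes the lysosomal sialidase, lies on chromosome 17 (34931253 to 34937297) and stood at 43.5, 42.4 and 42.03 TPM in the parental libraries, 3.30, 3.74 and 3.56 TPM in e1 and 11.2, 11.2 and 10.98 TPM in e2. Parental libraries lay far above both lines, and the log2 fold changes were -3.27 ± 0.06 (adjusted p = 1.22e-10) and -1.85 ± 0.06 (adjusted p = 3.72e-09). Of its partners in the same enzyme complex, Ctsa rose in both lines as given above. Glb1, beta-galactosidase, had means of 35.1 ± 0.534, 32.2 ± 2.06 and 46.4 ± 1.60 TPM and rose in e2 by 0.39 ± 0.06 (adjusted p = 0.000206). In e1 Glb1 had no call (-0.12 ± 0.06, adjusted p = 0.0888), though all its e1 libraries lay below the parental ones. Glb1 passed in e1 with median-ratio scaling (-0.13, adjusted p = 0.0368). Manba, beta-mannosidase, fell in e1 (-0.81 ± 0.13, adjusted p = 0.000348) from 17.2 ± 1.94 to 9.47 ± 1.87 TPM and had 20.7 ± 1.25 TPM in e2, where it was not called (0.26 ± 0.13, adjusted p = 0.0986) but passed when e1 library 1 was left out (adjusted p = 0.0198) or only the 2 compared groups were fitted (adjusted p = 0.0205).

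**Figure D3:**
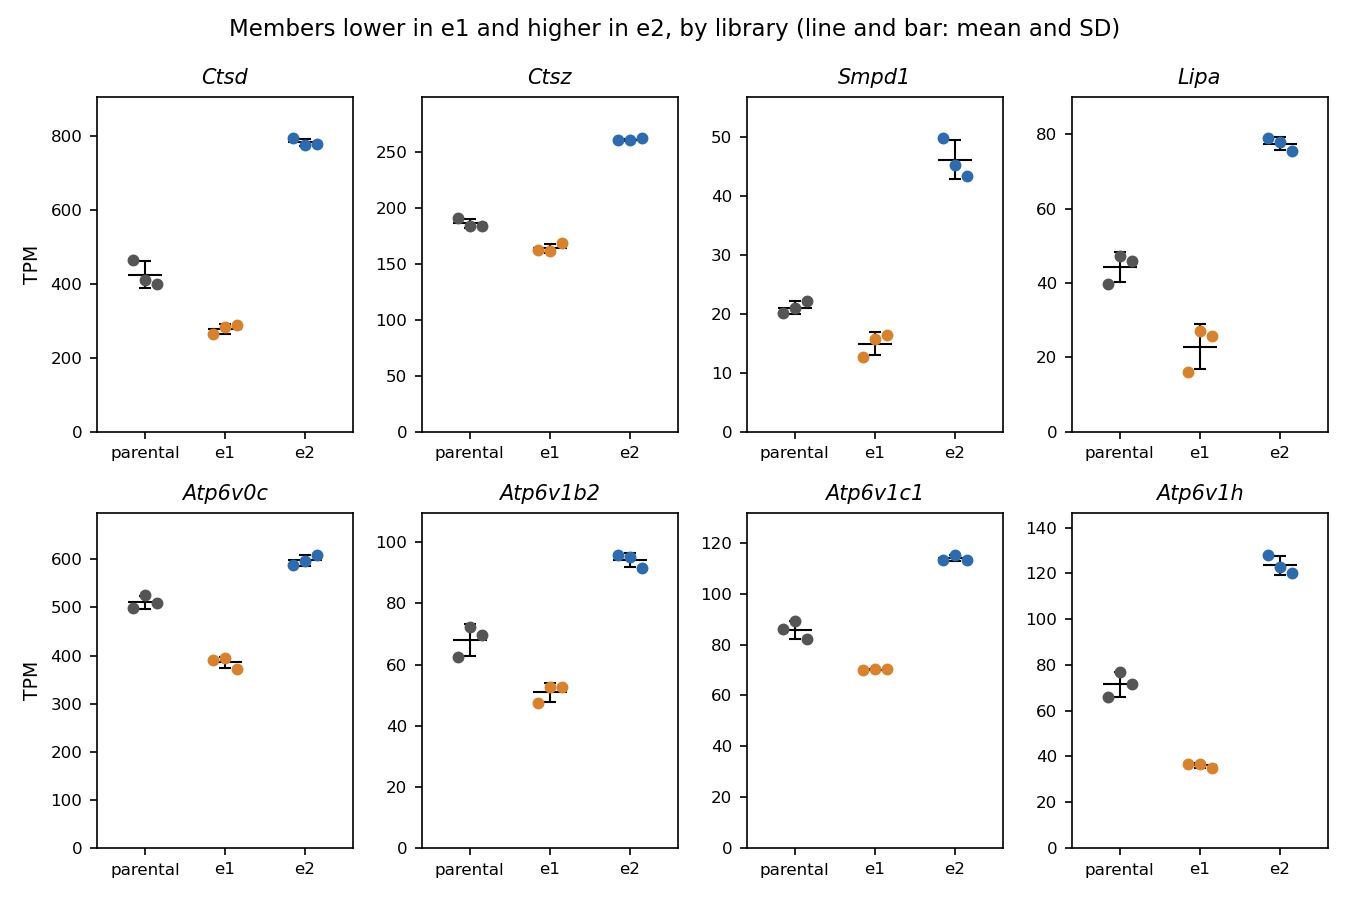
TPM per library (y axis, from 0) in parental, e1 and e2 cells for the 8 members that fell in e1 and rose in e2, with mean and SD (n = 3 libraries). For each gene the 3 e1 libraries lie below and the 3 e2 libraries above all parental libraries, and on the log2 scale the gap between e1 and e2 is widest for Lipa, Atp6v1h and Smpd1.

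Of the 6 membrane protein genes, 5 rose in e2 and none was called lower there, while in e1 3 rose and 1 fell. Without Gpnmb, which could only come out higher, 4 of 5 rose in e2 and 2 of 5 in e1, against 40.8% and 35.7% of all genes. Gpnmb, a transmembrane glycoprotein of lysosomes and melanosomes on chromosome 6 (49036518 to 49058182), had the largest change of any member: 0.273, 0.198 and 0.125 TPM in the parental libraries, 3.83, 8.67 and 7.98 TPM in e1 and 158, 155 and 154 TPM in e2. It was near 0 in parental cells, low in e1 and abundant in e2, with log2 fold changes of 2.64 ± 0.22 (adjusted p = 3.29e-06) and 7.03 ± 0.22 (adjusted p = 3.38e-09), and e2 exceeded e1 by 4.39. Cd63, a tetraspanin of late endosomes, stood at 315, 261 and 257 TPM in the parental libraries, 596, 620.5 and 624 TPM in e1 and 1122, 1138 and 1114 TPM in e2. The groups were well separated, at 1.15 ± 0.07 (adjusted p = 4.95e-07) and 2.02 ± 0.07 (adjusted p = 8.55e-09). Lamp2, which also serves chaperone-mediated autophagy, stood at 104, 96.4 and 95.3 TPM in the parental libraries, 141, 175 and 168 TPM in e1 and 381, 389.9 and 369.9 TPM in e2. It rose by 0.70 ± 0.08 (adjusted p = 3.43e-05) and 1.94 ± 0.08 (adjusted p = 2.18e-08).

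Scarb2 was the membrane protein gene called lower in e1. It encodes LIMP-2, the carrier of glucocerebrosidase, and stood at 30.4, 36.9 and 35.2 TPM in the parental libraries, 3.09, 4.12 and 4.45 TPM in e1 and 31.6, 30.9 and 30.8 TPM in e2. In e1 it fell 8.79-fold in mean TPM (-2.85 ± 0.11, adjusted p = 1.5e-08), while e2 libraries overlapped the parental ones (-0.13 ± 0.11, adjusted p = 0.317). Lamp1, at means of 564 ± 25.7, 517 ± 55.6 and 856 ± 9.07 TPM, was the most abundant member in parental cells. It rose in e2 (0.60 ± 0.07, adjusted p = 5.51e-05) and was not called in e1 (-0.13 ± 0.07, adjusted p = 0.145), with a call under median-ratio scaling (-0.14, adjusted p = 0.0498). Mcoln1, the calcium channel TRPML1, had means of 33.4 ± 1.36, 37.2 ± 3.31 and 67.6 ± 1.45 TPM and rose in e2 (0.99 ± 0.07, adjusted p = 8.6e-07). Its e1 value, 0.15 ± 0.07, missed the threshold (adjusted p = 0.0824), but passed when e1 library 1 was left out (0.22, adjusted p = 0.00273) or the deposited regularized log2 values were used (0.13, adjusted p = 0.0412).

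**Figure D4:**
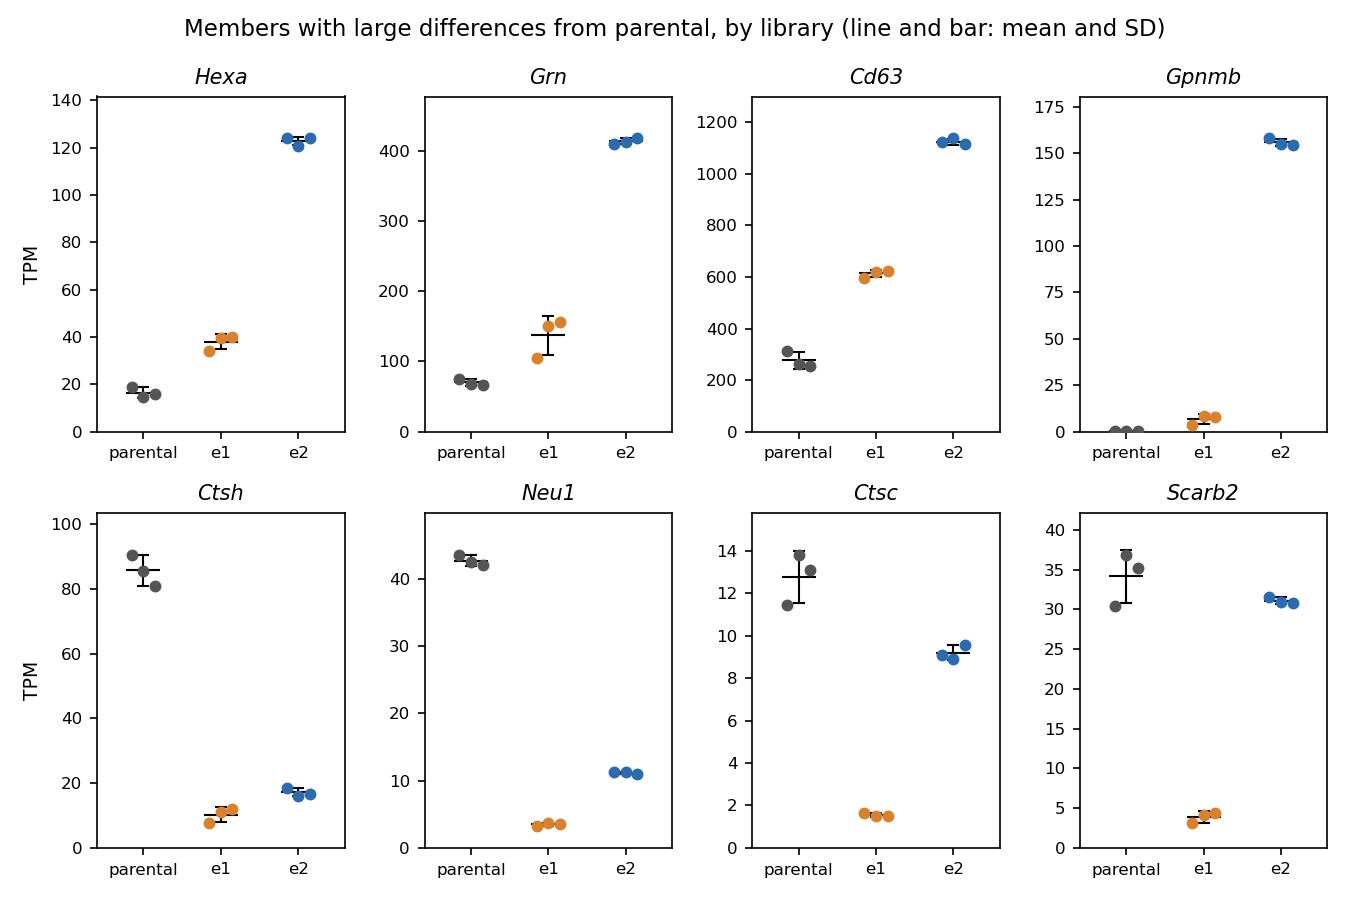
TPM per library (y axis, from 0) in parental, e1 and e2 cells for 4 members with large rises (Hexa, Grn, Cd63, Gpnmb) and 4 with large falls in e1 (Ctsh, Neu1, Ctsc, Scarb2), with mean and SD (n = 3 libraries). The top row climbs from parental to e1 to e2, whereas in the bottom row e1 is lowest and e2 lies between e1 and the parental libraries or overlaps them.

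The proton pump genes also rose mostly in e2. Of the 12 tested V-ATPase members, 9 rose in e2, 1 fell and 2 were not called, with a median log2 fold change of 0.52, beside 0.07 for all genes, of which 40.8% rose and 32.7% fell. In e1 3 rose, 6 fell and 3 were not called, with a median of -0.24, beside 0.02 for all genes, of which 35.7% rose and 34.9% fell. Of the 5 tested V0 members, 3 fell in e1 and none rose. Atp6v0d1 was called higher there without e1 library 1, with median-ratio scaling (0.29) and with the deposited regularized log2 values (0.26). Atp6v0c encodes the proteolipid of the rotating ring, present in several copies per pump, and was the most abundant subunit gene at 499, 526 and 508 TPM in the parental libraries, 390.4, 395 and 372 TPM in e1 and 588, 596 and 609.7 TPM in e2. It fell in e1 by a small amount, at -0.40 ± 0.04 (adjusted p = 2.06e-05), and rose in e2, at 0.23 ± 0.04 (adjusted p = 0.000994). The table also lists a pseudogene copy, Atp6v0c-ps2, and how reads were shared between them was not tested. Atp6v0d1, the subunit that couples the ring to the stalk, stood at 53.4, 56.8 and 56.9 TPM in the parental libraries, 53.2, 76.4 and 80.6 TPM in e1 and 121, 116 and 115 TPM in e2. The e2 value was 1.06 ± 0.13 (adjusted p = 5.38e-05). In e1, library 1 lay just below the parental range and the other libraries above it, and the value of 0.30 ± 0.13 (adjusted p = 0.0627) became 0.49 (adjusted p = 1.1e-05) without that library. Atp6v0d2, the form of this subunit known from osteoclasts and macrophages, was at or under 0.0946 TPM in every library.

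The V0 genes Atp6v0b and Atp6v0e differed. Atp6v0b, a further proteolipid, had means of 133 ± 14.1, 116 ± 7.61 and 254 ± 8.16 TPM and rose in e2 (0.93 ± 0.08, adjusted p = 3.95e-06). Its e1 value of -0.20 ± 0.08 missed the threshold (adjusted p = 0.0506) and passed without parental library 3 (-0.26, adjusted p = 0.0233). Atp6v0e, a small membrane subunit, was the V-ATPase member that fell in both lines, from 228 ± 5.52 TPM to 152 ± 5.40 in e1 and 175 ± 10.9 in e2.

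The V1 genes Atp6v1b2, Atp6v1c1 and Atp6v1h fell in e1 and rose in e2. Atp6v1h, the regulatory subunit that governs joining of the sectors, had the largest swing at 65.9, 76.9 and 71.9 TPM in the parental libraries, 36.9, 36.9 and 34.9 TPM in e1 and 128, 123 and 120.0 TPM in e2. The log2 fold changes were -0.96 ± 0.06 (adjusted p = 6.89e-07) and 0.78 ± 0.06 (adjusted p = 2.69e-06), and e2 exceeded e1 by 1.74. Atp6v1b2, a subunit of the catalytic hexamer, stood at 62.4, 72.2 and 69.6 TPM in the parental libraries, 47.4, 52.6 and 52.8 TPM in e1 and 95.98, 95.1 and 91.6 TPM in e2. It showed -0.41 ± 0.07 (adjusted p = 0.000452) and 0.47 ± 0.07 (adjusted p = 0.000181). Atp6v1c1, a peripheral subunit, stood at 85.9, 89.3 and 82.1 TPM in the parental libraries, 69.8, 70.4 and 70.2 TPM in e1 and 113, 115 and 113 TPM in e2. The spread within e1 and e2 was small, and the values were -0.29 ± 0.05 (adjusted p = 0.000422) and 0.41 ± 0.05 (adjusted p = 3.52e-05).

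The central stalk gene Atp6v1d stood at 58.2, 49.4 and 49.3 TPM in the parental libraries, 68.3, 76.3 and 73.01 TPM in e1 and 127, 125 and 125 TPM in e2. It rose in both lines, at 0.47 ± 0.07 (adjusted p = 0.000281) and 1.25 ± 0.07 (adjusted p = 2.35e-07). Atp6ap1, the accessory protein Ac45 that helps pump assembly, stood at 117, 116 and 112 TPM in the parental libraries, 133, 144 and 145 TPM in e1 and 299, 288 and 292 TPM in e2. It rose likewise, by 0.29 ± 0.05 (adjusted p = 0.000547) and 1.34 ± 0.05 (adjusted p = 1.08e-08). The stator gene Atp6v1e1 rose in e2, at 0.58 ± 0.04 (adjusted p = 1.64e-06), with -0.04 ± 0.04 in e1 (adjusted p = 0.388). The catalytic subunit gene Atp6v1a was the exception to the order of the lines: its means were 68.6 ± 2.71 TPM in parental cells, 89.2 ± 4.66 TPM in e1 and 68.5 ± 2.01 TPM in e2, and it rose in e1 (0.37 ± 0.06, adjusted p = 0.000242) and overlapped parental cells in e2 (-0.00 ± 0.06, adjusted p = 0.995).

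The a subunit of V0, whose forms direct the pump to different membranes, differed by gene. Atp6v0a1 stood at 43.6, 49.4 and 51.2 TPM in the parental libraries, 16.6, 19.7 and 20.8 TPM in e1 and 48.2, 46.8 and 47.8 TPM in e2. Its e1 libraries were well below the others (-1.30 ± 0.09, adjusted p = 8.28e-07), and e2 overlapped parental cells (-0.01 ± 0.09, adjusted p = 0.91). Of the other a subunit genes, Tcirg1, whose a3 form is known from lysosomes and the osteoclast border, rose in both lines, from 10.2 ± 0.341 TPM to 43.3 ± 7.78 TPM in e1 (1.97 ± 0.11, adjusted p = 2.48e-07) and 48.6 ± 0.241 TPM in e2 (2.15 ± 0.11, adjusted p = 1.15e-07). In parental cells Atp6v0a1 and Atp6v0a2 (26.8 ± 0.922 TPM) both lay above Tcirg1, in e1 Tcirg1 lay above both, and in e2 Tcirg1 stood beside Atp6v0a1 (47.6 ± 0.744 TPM). Atp6v0a2 fell in e1 to 14.8 ± 0.914 TPM (-0.82 ± 0.06) and rose in e2 to 33.8 ± 0.458 TPM (0.32 ± 0.06). Atp6v0a4, known from kidney, passed the filter on low values only through parental libraries and so could only come out lower, and fell from 1.56 ± 0.425 TPM to 0.405 ± 0.221 TPM in e1 and 0.0143 ± 0.0125 TPM in e2.

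The MiT transcription factor genes did not move together. Tfe3, by far the most abundant of them, stood at 23.4, 26.3 and 25.8 TPM in the parental libraries, 42.4, 47.03 and 48.1 TPM in e1 and 54.3, 56.2 and 55.1 TPM in e2. All escape libraries lay above the parental ones, at 0.84 ± 0.07 in e1 (adjusted p = 2.16e-06) and 1.10 ± 0.07 in e2 (adjusted p = 2.78e-07). Tfeb stood at 8.11, 10.6 and 8.71 TPM in the parental libraries, 4.67, 6.03 and 5.86 TPM in e1 and 9.17, 10.01 and 9.80 TPM in e2. It was lower in e1 (-0.64 ± 0.11, adjusted p = 0.000616) and overlapped parental cells in e2 (0.08 ± 0.11, adjusted p = 0.531). Mitf was low throughout, at 0.115, 0.148 and 0.178 TPM in the parental libraries, 0.588, 0.663 and 0.633 TPM in e1 and 2.99, 3.29 and 2.998 TPM in e2, and rose by 0.51 ± 0.07 in e1 (adjusted p = 0.000123) and 1.83 ± 0.07 in e2 (adjusted p = 1.21e-08). The order of the 3 genes by mean TPM was Tfe3, Tfeb and Mitf in each group. RNA level does not show where these factors lie in the cell, which is how they are mainly controlled.

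**Figure D5:**
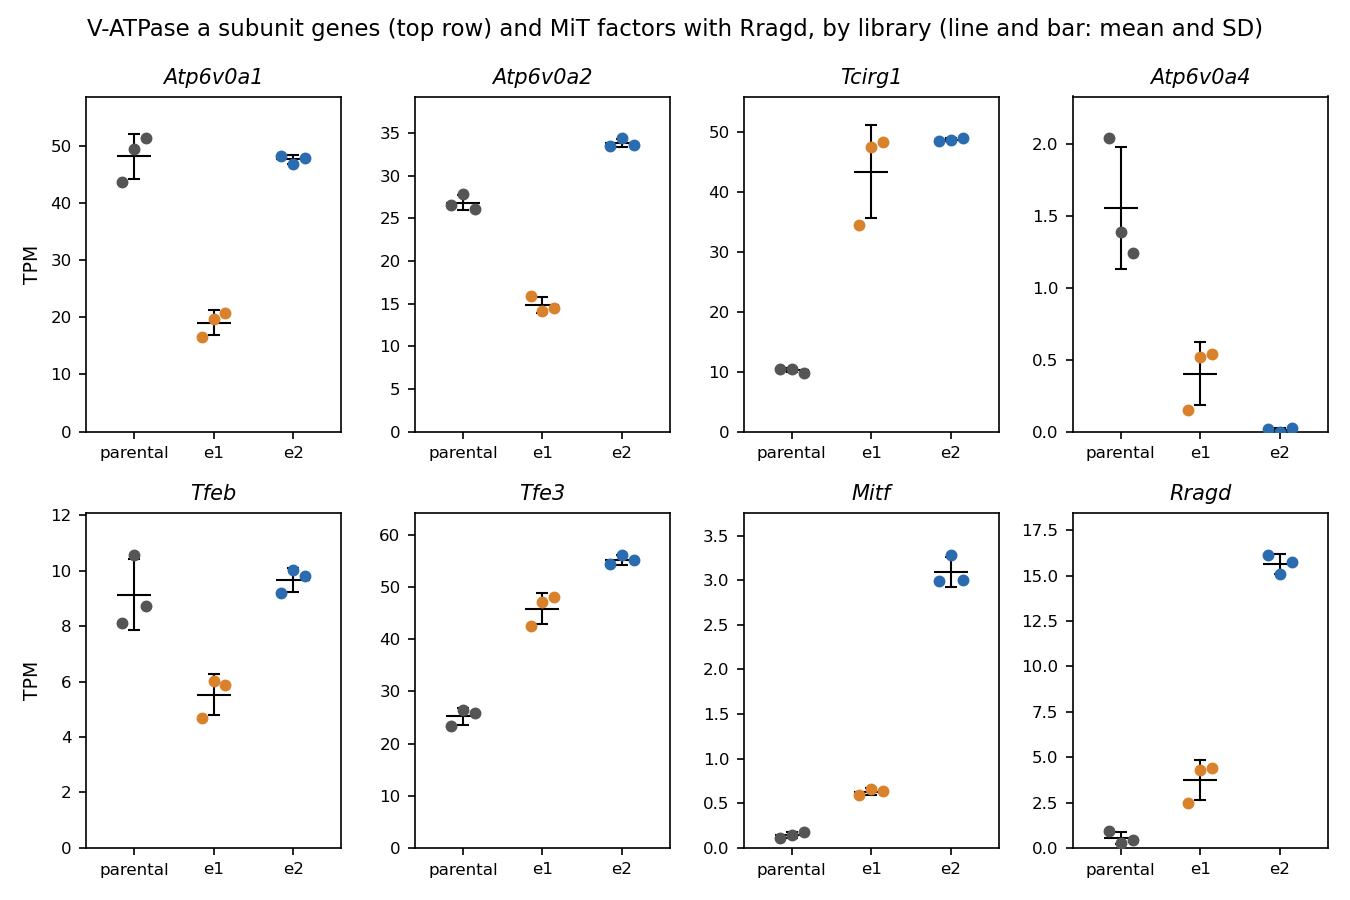
TPM per library (y axis, from 0) in parental, e1 and e2 cells for the V-ATPase a subunit genes Atp6v0a1, Atp6v0a2, Tcirg1 and Atp6v0a4 (top) and for Tfeb, Tfe3, Mitf and Rragd (bottom), with mean and SD (n = 3 libraries). Tcirg1, Tfe3, Mitf and Rragd are higher in all escape libraries than in parental ones, while Atp6v0a1 and Tfeb are lowest in e1.

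The promoters of the members were searched for the E-box CACGTG, the core of the element these factors bind. RefSeq promoter windows, from 250 bases before to 50 after the start site (GRCm38.p6), matched 39 of the 46 members by symbol, and 14 of them (35.9%) held CACGTG, which reads the same on either strand, against 8.09% of all 27025 genes with a window and 11.8% of the 9811 genes tested here. The longer TCACGTG, searched on both strands and contained within the matches above, stood in 12 members (30.8%) against 4.29% of all genes and 7.04% of those tested. The full 10-base palindrome of the element, which extends the E-box by a pair of bases on each side, was in 0 of 39 members and in 0.37% of all genes and 0.826% of those tested, and CATGTG, the related M-box core on both strands, was in 8 members (20.5%) against 15.9% of all genes and 9.9% of those tested. The match closest to the start site in each of the 14 genes is shown with up to 12 bases on each side, 5′ to 3′ on the gene's own strand, with CACGTG in capitals, so that the bases next to the core can be compared.
Ctsa, chr2:164833766-164833795, plus strand: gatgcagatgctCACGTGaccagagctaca
Ctsd, chr7:142387908-142387937, minus strand: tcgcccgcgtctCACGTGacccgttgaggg
Ctsf, chr19:4855074-4855103, plus strand: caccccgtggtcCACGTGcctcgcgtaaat
Ctsl, chr13:64370739-64370768, minus strand: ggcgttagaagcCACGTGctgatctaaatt
Lgmn, chr12:102439124-102439153, minus strand: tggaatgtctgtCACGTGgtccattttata
Gaa, chr11:119267811-119267840, plus strand: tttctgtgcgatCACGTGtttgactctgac
Gla, chrX:134601182-134601211, minus strand: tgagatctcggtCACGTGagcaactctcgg
Glb1, chr9:114401018-114401047, plus strand: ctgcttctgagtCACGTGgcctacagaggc
Lamp1, chr8:13159134-13159163, plus strand: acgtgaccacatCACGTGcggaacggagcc
Mcoln1, chr8:3500462-3500491, plus strand: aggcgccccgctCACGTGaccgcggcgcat
Atp6v0b, chr4:117887330-117887359, minus strand: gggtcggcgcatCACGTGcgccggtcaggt
Atp6v0d1, chr8:105566050-105566079, minus strand: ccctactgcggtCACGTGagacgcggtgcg
Atp6v0e, chr17:26676387-26676416, plus strand: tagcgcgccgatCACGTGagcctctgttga
Atp6v1a, chr16:44139373-44139402, minus strand: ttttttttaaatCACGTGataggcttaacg

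In 12 of these 14 sequences, all but those of Ctsf and Ctsl, the core is preceded by T on the strand shown. Among the 14 genes with CACGTG, 12 rose in e2 and 1 fell, with a median log2 fold change of 1.02, and among the 24 tested members whose window lacked it 17 rose and 3 fell, with a median of 1.10. In e1, 5 of the 14 rose and 2 fell, and 12 of the 24 rose and 11 fell. Of all genes tested, 40.8% rose and 32.7% fell in e2, and 35.7% rose and 34.9% fell in e1. The 24 include Ctsk, Gpnmb and Mitf, which could only come out higher in e2. These matches are letters in a window and not measured binding. The upstream stretch of Lamp1, on chr8:13158911-13159160 (plus strand, GRCm38.p6), is shown whole because it holds 4 copies of CACGTG (capitals), more than any other member.
Lamp1: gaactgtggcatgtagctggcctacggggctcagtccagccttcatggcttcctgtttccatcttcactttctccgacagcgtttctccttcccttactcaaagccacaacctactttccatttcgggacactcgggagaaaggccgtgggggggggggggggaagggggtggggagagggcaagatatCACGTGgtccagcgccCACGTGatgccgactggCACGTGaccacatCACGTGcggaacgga
That of Gpnmb, the member with the largest change, on chr6:49036268-49036517 (plus strand), holds neither CACGTG nor CATGTG.
Gpnmb: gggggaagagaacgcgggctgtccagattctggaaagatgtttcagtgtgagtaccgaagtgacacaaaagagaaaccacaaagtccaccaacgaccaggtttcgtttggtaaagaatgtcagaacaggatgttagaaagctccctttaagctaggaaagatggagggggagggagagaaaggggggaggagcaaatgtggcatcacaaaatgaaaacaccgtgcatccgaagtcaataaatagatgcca

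Other lysosome genes outside the members were listed by role and not by how they moved, and their counts are to be read against 40.8% higher and 32.7% lower over all genes in e2 and 35.7% and 34.9% in e1. Of 31 further hydrolase and cofactor genes, all tested, 20 rose and 4 fell in e2 (median 0.76), and 10 rose and 8 fell in e1 (median 0.03), which is no larger a share than over all genes. Arsa, arylsulfatase A, rose from 7.07 ± 0.330 TPM to 19.8 ± 1.88 in e1 (1.36 ± 0.07) and 42.5 ± 1.05 in e2 (2.43 ± 0.07), and Arsb, arylsulfatase B, from 12.9 ± 0.904 to 65.5 ± 1.49 TPM in e2 (2.26 ± 0.08). Against the majority, Gm2a, the activator that hands GM2 ganglioside to the HEXA enzyme, fell from 39.1 ± 0.595 TPM to 7.86 ± 1.95 in e1 and 7.79 ± 0.289 in e2 (-2.21 ± 0.14 and -2.19 ± 0.14), so that Hexa and its activator moved in opposite directions. Man2b1, alpha-mannosidase, fell in e2 (-0.67 ± 0.09) and Naglu, which degrades heparan sulfate, fell in e1 (-0.57 ± 0.09).

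Of 20 further membrane protein genes tested, 15 rose and 1 fell in e2 (median 0.70), while 9 rose and 6 fell in e1 (median 0.23). Laptm4a, a small transmembrane protein of late endosomes, rose from 155 ± 15.6 TPM to 280.4 ± 22.9 in e1 and 431 ± 9.66 in e2, and Ostm1, the partner of the CLC-7 chloride transporter, rose by 1.54 ± 0.06 in e2. The channel gene Tpcn1 rose by 1.15 ± 0.05 in e1, where Cln3 and Tmem106b fell (-1.05 ± 0.10 and -1.01 ± 0.10). The peptide transporter gene Slc15a4 was the gene called lower in e2 (-0.18 ± 0.07, adjusted p = 0.0416), a call that was lost on leaving out any of the parental or e2 libraries or e1 library 3. Among 7 further V-ATPase genes tested, 5 rose and 1 fell in e2 and 2 rose and 3 fell in e1, and without Atp6v0a4 5 of 6 rose and 0 fell in e2 and 2 rose and 2 fell in e1. The stator gene Atp6v1g1 rose in e2 from 231 ± 10.3 to 540.0 ± 14.7 TPM (1.22 ± 0.05), and Atp6v1f fell in e1 (-0.47 ± 0.12).

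Genes of mannose 6-phosphate delivery, listed together with the sorting receptor genes Sort1 and Sorl1, were counted in the same way. Of 10 tested, 2 rose and 5 fell in e2 (median -0.27, against 40.8% and 32.7% of all genes), and 2 rose and 4 fell in e1 (median -0.11, against 35.7% and 34.9%). Sorl1 was under 1 TPM in all e2 libraries and could only come out lower there. Without it, 2 of 9 rose and 4 fell in e2 (median -0.26). The largest falls were in low genes: the sorting receptor gene Sort1 fell from 6.12 ± 1.05 TPM to 2.63 ± 0.659 in e1 (-0.98 ± 0.15) and 1.77 ± 0.0376 in e2 (-1.35 ± 0.15), and Sorl1, a related receptor gene, from 2.74 ± 1.14 to 0.586 ± 0.0661 TPM in e2 (-1.20 ± 0.21), where all its libraries were under 1 TPM. Gnptab, a subunit of the enzyme that makes the tag, fell from 17.1 ± 1.85 TPM to 13.5 ± 0.471 in e1 (-0.31 ± 0.08) and 10.4 ± 0.174 in e2 (-0.65 ± 0.08). Nagpa, the uncovering enzyme, fell in e2 (-0.49 ± 0.10), while the adaptor gene Gga2 rose (0.71 ± 0.06). The receptor gene M6pr rose in e1 (0.30 ± 0.06), and in e2 its value was -0.16 ± 0.06 (adjusted p = 0.0517). The adaptor gene Gga3 rose in e1 (0.45 ± 0.10) and fell in e2 (-0.27 ± 0.10), and Gnptg, the other subunit of the tagging enzyme, fell in e1 (-0.46 ± 0.10) and rose in e2 (0.46 ± 0.10).

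Of 19 tested genes of mTORC1, its Ragulator anchor and the folliculin complex, 15 rose and 2 fell in e2 (median 0.42), and 12 rose and 3 fell in e1 (median 0.31). Rragd was under 1 TPM in every parental library and could only come out higher, and without it 14 of 18 rose in e2 and 11 in e1, against 40.8% and 35.7% of all genes. This Rag GTPase gene, known as a MiT target, went from 0.926, 0.270 and 0.433 TPM in the parental libraries to 2.45, 4.31 and 4.42 TPM in e1 and 16.2, 15.1 and 15.8 TPM in e2 (1.61 ± 0.19 and 3.45 ± 0.19). Flcn, the GTPase activator that acts on RagC and RagD, rose by 0.59 ± 0.08 in e1. Rragb went up in e1 (1.29 ± 0.13) and down in e2 (-0.86 ± 0.13), and Rheb, the small GTPase that switches mTORC1 on, fell in e1 (-0.89 ± 0.05), with -0.13 ± 0.05 in e2 (adjusted p = 0.0499), a call lost under 11 of the 18 alternatives, among them leaving out any e2 library, parental library 2 or 3, or e1 library 2 or 3. Lamtor4, a Ragulator subunit, fell in e1 (-0.71 ± 0.12) and rose in e2 (0.65 ± 0.12). Zkscan3, a repressor of lysosome genes, rose by 1.29 ± 0.07 in e2. Of the cathepsin inhibitor genes, 2 had at least 1 TPM in parental cells and both rose in e2: Cst3, the secreted cystatin C, from 442 ± 6.92 to 797 ± 7.05 TPM (0.85 ± 0.04) and Cstb, cytosolic cystatin B, from 289 ± 13.6 to 782 ± 27.3 TPM (1.43 ± 0.08). In e1 Cst3 rose and Cstb was not called (-0.00 ± 0.08, adjusted p = 0.983). Cst6 was under 1 TPM in all parental libraries and so could only come out higher in e2, as it did. It was also called higher in e1, where its mean was under 1 TPM too.

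Markers of other cell types were examined because several members, such as Gpnmb, Ctsk and Ctss, are abundant in macrophages, osteoclasts or pigment cells. Summed over 14 macrophage markers the level was 77.9 to 81.5 TPM in parental libraries, 6.34 to 11.6 in e1 and 57.9 to 64.6 in e2, nearly all of it from Cd14 and Mrc1. Ptprc, the leukocyte marker CD45, was at or under 0.110 TPM in every library. Lyz2 and the complement genes C1qa, C1qb and C1qc were listed at 0 in all parental and e1 libraries. In e2 Lyz2 stood at 1.34, 1.51 and 0.914 TPM and C1qb at 0.281, 0.0833 and 0.331 TPM, and their part in the e2 values was not tested. Of 6 melanocyte markers none reached a mean of 1 TPM in any group, with Tyrp1, Dct and Sox10 listed at 0 throughout. The osteoclast markers Calcr, Dcstamp, Oscar and Ocstamp were under 1 TPM in all groups, while Nfatc1 rose in e2 (0.90 ± 0.12) and Acp5, the tartrate-resistant acid phosphatase of lysosomes, fell in both lines (-2.10 ± 0.12 and -0.97 ± 0.12).

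Epithelial markers of the labelled tumor cells were far higher in parental cells than in the escape lines. Of 9 markers of duct-type pancreatic epithelium, 8 fell and 1, Sox9, rose in each line. Of all genes tested, 34.9% fell and 35.7% rose in e1, and 32.7% fell and 40.8% rose in e2. Epcam was under 1 TPM in all escape libraries and could only come out lower, and without it 7 of 8 fell in each line. The summed level of the 9 markers was 8158 to 9452 TPM in parental libraries, 1219 to 1267 in e1 and 1775 to 1845 in e2. Epcam, an epithelial adhesion gene, had 133 ± 32.8 TPM in parental cells, 0.296 ± 0.0427 in e1 and 0.185 ± 0.0737 in e2, and the keratin gene Krt7 had 2264 ± 163, 1.05 ± 0.182 and 28.1 ± 1.79 TPM. Over 9 fibroblast markers the summed level was 0.660 to 1.03 TPM in parental libraries, 238 to 263 in e1 and 217 to 226 in e2, and Lum was listed at 0 throughout. The collagen gene Col1a1 had 0.432 ± 0.0967 TPM in parental cells, 103 ± 25.2 in e1 and 34.7 ± 0.799 in e2, and Col1a2 and Dcn, the decorin gene, were listed at 0 in all parental libraries, with Col1a2 at 116 ± 6.66 TPM in e1 and 82.00 ± 2.97 in e2 and Dcn at 0.148 ± 0.0708 and 35.5 ± 0.853 TPM. Both sums differed from parental cells in e1 as well as in e2, while the summed lysosome level differed mainly in e2, and the part of these markers in the lysosome values was not tested. In bulk libraries a change in the share of cells that express a gene and a change in RNA per cell cannot be told apart.

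E1 library 1 was the lowest of its group in 35 of the 44 members, against 48.9% of all genes tested. Without it, 21 members rose and 18 fell in e1, and 34 rose and 6 fell in e2, and Gla, Mcoln1 and Atp6v0d1 joined the calls in e1 as given above. Chromosomes also differed in their median. Of the 44 members, 11 in e1 and 5 in e2 had values within 0.2 of the median of their chromosome, and 9 in e1 and 24 in e2 lay 1 or more from it on the log2 scale. The same counts were not made over all genes tested, so they do not show anything particular to the members. In e1 the median log2 fold change was -0.35 over 624 tested genes of chromosome 17, which carries Neu1, Tfeb, Atp6v0c and Atp6v0e, all lower in e1, and -0.56 over 807 genes of chromosome 5, which carries Gusb and Scarb2. It was 0.57 on chromosome 14, where Ctsb lies, and 0.48 on chromosome 12, where Lgmn and Atp6v1d lie. The e1 median was also 0.48 on chromosome 13, where Ctsl stood at 0.13. On chromosome 19 it was -0.38, with Ctsf at 0.59 and Lipa at -0.95. In e2 it was 0.75 on chromosome 13, where Ctsl lies, and -0.65 on chromosome 16, where Atp6v1a lies at -0.00. The e1 values of Ctsb, Lgmn, Atp6v1d, Gusb and Atp6v0c lay within 0.2 of their chromosome's median, whereas those of Neu1 and Scarb2 were far below it, and the part of the chromosomes was not tested.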

How the data were processed

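RNA from cultured mouse pancreatic tumor cells (9 libraries, 3 each of parental, e1 and e2) was extracted with Qiagen reagents and sequenced at BGI, per the labels' protocols. TPM values by gene, and regularized log2 values, were deposited by the authors, who used Salmon, DESeq2 and mm10, per the submitters' processing notes. Their versions were not given in the sources used here. All TPM columns share a fixed total, so read depth is unknown, and 11188 to 12039 genes reached 1 TPM per library. A single transcript, Mir6236, held 3.92 to 9.48% of the TPM of a library.

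Genes with at least 1 TPM in at least 3 of the 9 libraries were tested on log2(TPM + 1) with limma 3.58.1 in R 4.3.3, using 3 group means, a trended robust prior and two-sided Benjamini-Hochberg adjustment over all 12769 genes. The fit was tested on simulated data. A pseudocount of 1 understates the change of low genes. Members described with every library's value were those called with a log2 fold change of at least 1 and at least 10 TPM in the higher group, the MiT factors, and those called in opposite directions. Of each further list, up to 2 called genes per direction and comparison were named by size of change, leaving out genes whose higher group averaged under 10 TPM. A gene that this rule names is not reported here. Other genes were named after their values were seen. The members and lists were chosen with earlier results of these data known. Promoters came from RefSeq, GRCm38.p6. Alternatives changed the pseudocount, filter, scaling, table, samples fitted, prior, replicate block and libraries included.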

Additional observations from a re-analysis of the deposited data

Results flagged for a closer look

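The change from parental cells differed between e1 and e2 for all 44 tested lysosome genes, by the limma test of the difference itself, which is the comparison of e2 with e1. Over all genes tested, 40.6% were called higher and 29.7% lower in e2 than in e1, so most genes also differed. Values here are the log2 fold change in e2 less that in e1, on the log2(TPM + 1) scale, from 3 libraries a line. The 2 lines share the parental libraries, which cancel out of this difference.

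Among cathepsin and legumain genes the difference was 2.0 for Ctsc, 1.49 for Ctsd, 1.27 for Ctsa, 1.17 for Ctsk, 1.17 for Lgmn, 1.11 for Ctsl, 0.96 for Ctsb, 0.70 for Ctsh, 0.67 for Ctsz, 0.59 for Ctso and 0.51 for Ctsf. Among the other hydrolase and activator genes it was 1.75 for Lipa, 1.67 for Hexa, 1.60 for Grn, 1.57 for Smpd1, 1.42 for Neu1, 1.25 for Psap, 1.22 for Gla, 1.12 for Gaa, 1.07 for Manba, 0.52 for Glb1, 0.47 for Asah1 and 0.37 for Gusb. Every gene in both groups was higher in e2, as Ctsk could only be, whether both lines lay above parental cells, as for Hexa, or below, as for Neu1 and Ctsh.

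Among membrane protein genes it was 4.39 for Gpnmb, 2.73 for Scarb2, 1.24 for Lamp2, 0.87 for Cd63, 0.85 for Mcoln1 and 0.73 for Lamp1, and among the MiT factor genes 1.33 for Mitf, 0.72 for Tfeb and 0.26 for Tfe3. Among V-ATPase genes it was 1.74 for Atp6v1h, 1.29 for Atp6v0a1, 1.13 for Atp6v0b, 1.05 for Atp6ap1, 0.88 for Atp6v1b2, 0.79 for Atp6v1d, 0.76 for Atp6v0d1, 0.69 for Atp6v1c1, 0.63 for Atp6v0c, 0.63 for Atp6v1e1 and 0.20 for Atp6v0e. Atp6v1a, for the catalytic subunit, was lower in e2, at -0.38. The Ctsf difference missed the threshold under 11 alternatives and the Atp6v0e difference under 3.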

How the results depend on the processing

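The total counts of members called higher or lower, and of all genes called, stayed within 1.5 times their value under the 18 alternatives, and no called member reversed. Smaller counts moved more: cathepsin genes higher in e1 fell from 6 to 3 without parental library 2, e1 library 2 or e1 library 3 and with a filter of 5 TPM, and members that rose by at least 1 in e1 went from 3 to 5 without e1 library 1 and to 6 with a pseudocount of 0.1. Leaving out 1 library gave 8348 to 9695 genes called in e1 and 8683 to 10246 in e2, and 8198 to 9331 between e2 and e1. Members higher then numbered 15 to 21 in e1, 33 to 34 in e2 and 41 to 43 in e2 against e1, and members lower 18 to 19, 5 to 6 and 1. With a filter of 5 TPM, 14 rose and 19 fell in e1, and 29 rose and 6 fell in e2. Ctsf, Ctsk, Ctso and Mitf were under 5 TPM in every library and were not tested with that filter. Of 132 member results, 115 kept direction and side of the threshold in every alternative that tested them. The other 17 included the e1 calls of Lgmn, Ctsf and Ctsk, and the causes were not tested. Library numbers did not pair the samples: residuals of same-numbered libraries correlated at -0.130 to 0.0499. With library number as a replicate block, 8742 genes were called in e1, 9163 in e2 and 8740 between the lines, and members numbered 16 higher and 18 lower in e1, 33 and 6 in e2, and 42 and 1 in e2 against e1. TPM gives no read depth, so counting error could not be set beside any value.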
